A study of Mus musculus with 8 samples.

Results

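Rbm4, Rbm4b, Rbm14, Rbm3 and Cirbp encode RNA-binding proteins with RNA recognition motifs, and they are described here in mouse liver. The 5 genes were listed by symbol among the 14506 genes of the table, and all 5 were among the 11174 genes with a mean normalized count of at least 10. Rbm4b was picked on its higher level in Rragc S74N/+ livers, so its genotype difference is given as a description without a test. The other 4 were listed because they are close relatives or neighbours of Rbm4b (Rbm4 and Rbm14) or are induced by cold (Rbm3 and Cirbp).

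Livers came from 8 mice. Rragc encodes RagC, a GTPase through which nutrient levels reach the growth kinase complex mTORC1. The S74N amino acid substitution was knocked into 1 germline allele, so that the Rragc S74N/+ mice carried it in the whole body. The 4 Rragc+/+ mice, called wild-type below, were 3 months old in 3 cases and 2.5 months old in 1, and the 4 Rragc S74N/+ mice were 3 months old in 2 cases, 2.5 months old in 1 and 2 months old in 1. The mice were kept on a C57BL/6 background under 12-hour periods of light and dark. The sex of each mouse and the hour at which its liver was taken are not given in the sources used here, which bears on every gene below that follows the daily cycle.

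RBM4, called LARK in flies, controls alternative splicing against the polypyrimidine tract-binding proteins and promotes translation of the clock messenger RNA Per1. Rbm4b is a paralog with nearly the same RNA recognition motifs. RBM14, also called CoAA, is a transcriptional coactivator and a component of paraspeckles, nuclear bodies built on the long RNA Neat1. RBM3 and CIRBP are glycine-rich proteins, and CIRBP acts on the processing of Clock RNA. Their messenger RNAs rise when cells are mildly cooled, and Cirbp RNA follows the daily rhythm of body temperature in liver. Heat shock genes move the other way, rising with temperature.

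Between 4313076 and 6632108 reads per liver lay in listed genes. Hepatocyte markers such as Alb and Apoa1 were all 8 present, with summed normalized counts of 235706 to 334396 in wild-type and 255532 to 435488 in S74N/+ livers. A library of this kit reads the 3′ end of each transcript, so a normalized count here is a number of 3′ ends scaled for depth. Counts of different genes were joined as shares, ratios or sums, which were compared between livers. In whole tissue, fewer cells of a type and less RNA per cell cannot be told apart. The edited gene itself had normalized counts of 84.1 ± 20.4 (SD, n = 4) in wild-type and 76.6 ± 7.32 (SD, n = 4) in S74N/+ livers (log2 fold change -0.11, SE 0.25, limma adjusted p = 0.931), which does not check the labels because the substitution leaves the gene transcribed.

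Rbm4b, Rbm4 and Rbm14 are neighbours on mouse chromosome 19 and span 55138 bases of GRCm38. Rbm4b lies on the forward strand at chr19:4756497-4767065. Rbm4 at chr19:4784293-4793901 and Rbm14 at chr19:4800569-4811634 lie on the reverse strand, with 17227 bases between Rbm4b and Rbm4 and 6667 between Rbm4 and Rbm14. Rbm3 is at chrX:8138975-8145880 on the reverse strand and Cirbp at chr10:80165985-80172786 on the forward strand. All 5 are protein-coding genes in GENCODE M21.

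The sequence upstream of a RefSeq start site is shown for Rbm4b, whose level differed between genotypes, for its neighbour Rbm4, and for Cirbp, whose window was the one that held the mild cold response element. RefSeq promoter windows of GRCm38.p6 (250 bases before to 50 after a start site, 32851 windows) matched 4 of the 5 genes, with 6 windows in all, and Rbm3 is named only. Capitals mark CCAAT or its reverse complement ATTGG, and in Cirbp also TCCCCGCC, and each stretch stops before the first annotated start in the window. The stretches are, in order, chr19:4756275-4756496 on the forward strand, chr19:4794010-4794259 on the reverse strand and chr10:80167589-80167777 on the forward strand. The Cirbp stretch lies within the annotated span of Cirbp, which starts further upstream. The Rbm4 stretch, and on the other strand the Rbm4b stretch, lie within the span of the read-through gene Gm21992. Overlap of the stretches with exons was not tested.
Rbm4b: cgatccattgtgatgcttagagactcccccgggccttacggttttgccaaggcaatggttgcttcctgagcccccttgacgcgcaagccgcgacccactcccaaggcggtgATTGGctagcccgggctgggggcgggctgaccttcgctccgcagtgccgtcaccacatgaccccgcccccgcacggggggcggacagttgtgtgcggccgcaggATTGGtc
Rbm4: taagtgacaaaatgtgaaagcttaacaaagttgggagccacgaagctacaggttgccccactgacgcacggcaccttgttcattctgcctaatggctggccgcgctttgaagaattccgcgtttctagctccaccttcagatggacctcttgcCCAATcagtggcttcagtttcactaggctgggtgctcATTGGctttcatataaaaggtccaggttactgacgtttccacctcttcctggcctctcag
Cirbp: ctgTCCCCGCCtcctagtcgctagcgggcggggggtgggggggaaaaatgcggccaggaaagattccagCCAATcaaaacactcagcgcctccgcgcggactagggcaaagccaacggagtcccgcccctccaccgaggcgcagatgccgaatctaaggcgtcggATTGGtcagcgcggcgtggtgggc

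CCAAT, searched on both strands like every motif here, was present in windows of Rbm4b, Rbm4, Rbm14 and Cirbp and in 37.4% of all windows. In Rbm4b it began at positions -139 and -35 from the RefSeq start site, on the opposite strand both times. In the Rbm4 window shown it began at -97 and -60 and again at 4 and 21, within the transcript. The Rbm14 window held 4 matches, of which 2 overlapped in the letters CCAATTGG. The mild cold response element TCCCCGCC, described for cold induction of Cirbp, lay at -247 to -240 in the first Cirbp window and was held by 5.38% of all windows. None of the 6 windows held an E-box (CACGTG, 7.15% of all windows), a D-box (TTATGTAA, 0.938%), a cAMP response element (TGACGTCA, 1.79%) or a pair of heat shock units (GAANNTTC, 7.86%), which says only that these letters are not in these windows.

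Rbm4b stood at 35.4, 41.1, 38.2 and 43.9 normalized counts in wild-type replicates 1 to 4 and at 85.4, 71.1, 74.7 and 119 in S74N/+ replicates 1 to 4. Every S74N/+ liver was above every wild-type liver, with a wide gap between the genotypes and the highest value in the 2-month-old mouse. The means were 39.7 ± 3.67 and 87.6 ± 21.9 (SD, n = 4 each), and 27 to 146 reads lay behind each value. On log2(normalized count + 1) the log2 fold change was 1.10 (SE 0.26), which is a fold of 2.14 on that scale. This contrast chose the gene, so these values are described and not tested. Of all 11174 genes, 1.3% had all S74N/+ livers above all wild-type livers and 1.64% had them all below, and 2.07% had a higher fold change than Rbm4b.

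Rbm4, the nearest relative of Rbm4b, stood at 65.3, 41.1, 39.6 and 92.5 in wild-type replicates 1 to 4 and at 45.9, 49.8, 50.1 and 50.6 in S74N/+ replicates 1 to 4. The S74N/+ values lay within 5 counts of each other and inside the wild-type range, whose highest value came from the 2.5-month-old wild-type mouse. The means were 59.6 ± 24.9 and 49.1 ± 2.16 (SD, n = 4 each), with a log2 fold change of -0.19 (SE 0.31) that did not pass the test across all genes (limma adjusted p = 0.900, exact permutation p = 0.543). The sign of this difference rested on replicate 4 of wild-type, since without it the log2 fold change was 0.05, and it was 0.01 in 3-month-old mice alone.

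Rbm14, the third gene of the cluster, stood at 37.3, 20.6, 21.2 and 43.0 in wild-type replicates 1 to 4 and at 38.6, 35.6, 25.6 and 53.0 in S74N/+ replicates 1 to 4. The genotypes overlapped and each held livers at a low and a high level. Its means were 30.5 ± 11.3 and 38.2 ± 11.3 (SD, n = 4 each), and the log2 fold change of 0.34 (SE 0.36) did not pass the test (limma adjusted p = 0.856, exact permutation p = 0.314). With 15 to 65 reads per liver it was the least sampled of the 5 genes. Across these 4 genes other than Rbm4b none passed an adjusted p of 0.05, where 0.00895% of all tested genes did, a single gene (Gpx3, a secreted glutathione peroxidase, named because it was the only one).

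Rbm3 stood at 83.0, 72.0, 84.9 and 97.2 in wild-type replicates 1 to 4 and at 103, 108, 69.1 and 123 in S74N/+ replicates 1 to 4. In S74N/+, 3 livers were above every wild-type liver, while replicate 3 was the lowest of all 8. The means were 84.3 ± 10.3 and 101 ± 22.8 (SD, n = 4 each), with a log2 fold change of 0.23 (SE 0.25, limma adjusted p = 0.857, exact permutation p = 0.257). That difference was larger than the log2 SD of the wild-type livers (0.17) and smaller than that of the S74N/+ livers (0.35), and it did not pass the test.

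Cirbp stood at 117, 157, 90.5 and 103 in wild-type replicates 1 to 4 and at 109, 113, 86.9 and 57.9 in S74N/+ replicates 1 to 4. The lowest liver was the 2-month-old S74N/+ mouse, in which Rbm3 was highest. The means were 117 ± 28.9 and 91.7 ± 25.3 (SD, n = 4 each), with a log2 fold change of -0.36 (SE 0.28, limma adjusted p = 0.846, exact permutation p = 0.286). With age as a covariate the log2 fold change was -0.16, and without that mouse it was also -0.16.

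**Figure D1:**
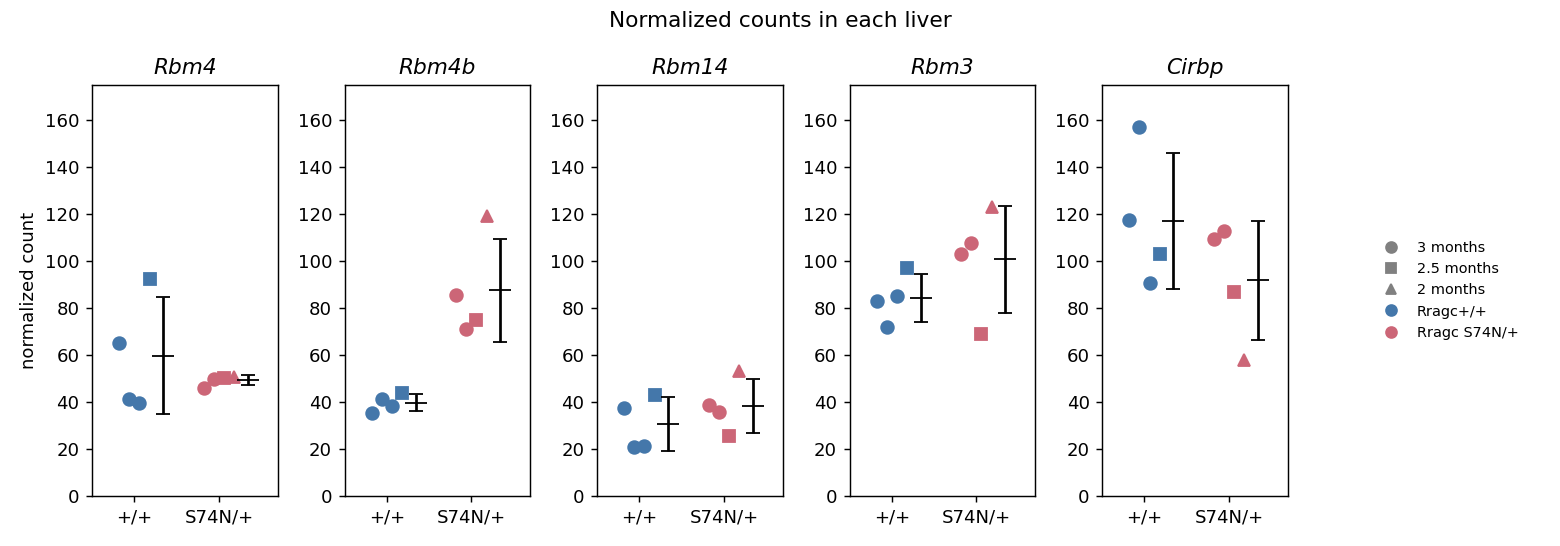
Normalized counts (y axis, from 0) of the 5 genes in each liver by genotype (x axis), with marker shape for age and black bars for the mean and SD of 4 livers. Rbm4b was at 35.4 to 43.9 in wild-type and 71.1 to 119 in S74N/+ livers, while the genotypes overlapped for the other 4 genes.

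The 2-month-old mouse, S74N/+ replicate 4, was the extreme of the 8 livers for 4 of the 5 genes, highest for Rbm4b, Rbm14 and Rbm3 and lowest for Cirbp. It was the only mouse of its age, so that its age and the animal cannot be told apart. Without it the log2 fold change of Rbm4b was 0.94, that of Rbm14 0.17 and that of Rbm3 0.12. In 3-month-old mice alone, 2 S74N/+ against 3 wild-type, the log2 fold change of Rbm4b was 1.01.

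Rbm4 and Rbm4b were also read as a pair. Rbm4b gave 35.2%, 50%, 49.1% and 32.2% of the reads of the pair in wild-type replicates 1 to 4, and 65.0%, 58.8%, 59.8% and 70.2% in S74N/+ replicates 1 to 4. The share was higher in every S74N/+ liver, with means of 41.6% ± 9.24 and 63.5% ± 5.25 (SD, n = 4 each), a description because the choice of Rbm4b enters it. The Wilson 95% intervals, which cover counting error only, ran from 39.8% to 60.2% for the highest wild-type liver and from 50.4% to 66.7% for the lowest S74N/+ liver, so these neighbours in the order overlapped. The summed count of the pair was 101, 82.3, 77.8 and 136 in wild-type and 131, 121, 125 and 170 in S74N/+ replicates 1 to 4. The sum therefore overlapped between genotypes, with the 2.5-month-old wild-type mouse above 3 of the S74N/+ livers.

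**Figure D2:**
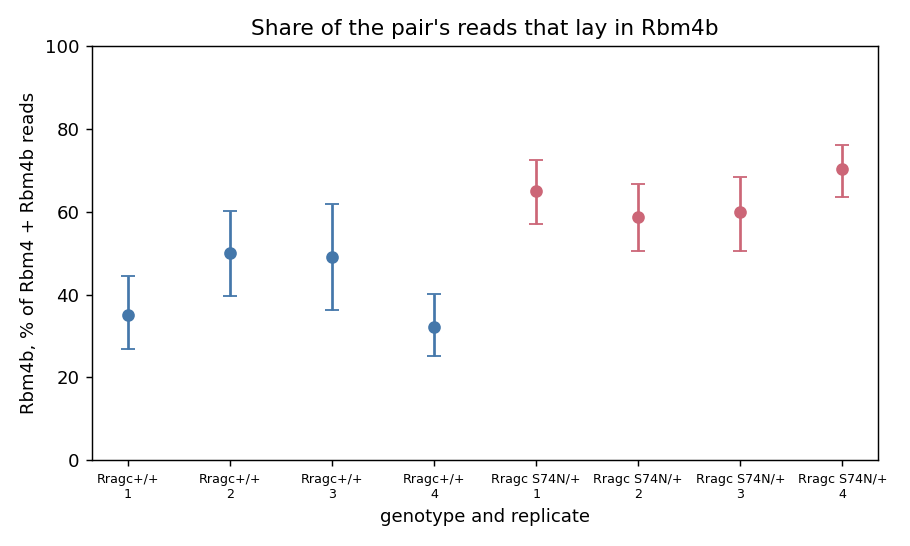
Percent of the reads of Rbm4 and Rbm4b that lay in Rbm4b (y axis) in each liver (x axis, genotype and replicate), with Wilson 95% intervals as bars. The 4 S74N/+ livers were at 58.8% to 70.2% and the 4 wild-type livers at 32.2% to 50%.

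The paralogs share some sequence, which bears on how reads are divided between them. Of the distinct 50-base words in annotated transcripts of Rbm4, 7.45% also occur in transcripts of Rbm4b, and 17.6% of those within 500 bases of a transcript end do. For Rbm4b the shares were 3.72% and 0.599%. By default HTSeq, the counter used, leaves out reads that align equally well to several places, and what this took from either gene was not tested. Rbm14 and Rbm4 shared no such word. Rbm4 and Rbm14 also overlap the read-through gene Gm21992 on the same strand, over 60.5% and 18.6% of their exonic bases, though over 0% of the last 300, and Gm21992 itself held 19 reads over the 8 livers.

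Of the other genes of this stretch of chromosome 19, 3 tested genes within 100000 bases of the cluster had smaller fold changes than Rbm4b. Their log2 fold changes were 0.00 for Ccs, the copper chaperone of superoxide dismutase, -0.37 for Ctsf, a lysosomal protease, and 0.20 for Dpp3, a peptidase. The smallest limma adjusted p among them was 0.846. Gm37206, an antisense gene within Rbm4b, held 46 reads over the 8 livers, and reads were counted by strand.

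Rbm14 against Rbm4 gave a ratio of 0.571, 0.5, 0.536 and 0.465 in wild-type replicates 1 to 4 and of 0.84, 0.714, 0.511 and 1.05 in S74N/+ replicates 1 to 4. The ratio lay between 0.465 and 0.571 in wild-type livers and above them in 3 of 4 S74N/+ livers. The means were 0.518 ± 0.0460 and 0.778 ± 0.225 (SD, n = 4 each). In wild-type livers only 15 to 46 Rbm14 reads and 28 to 99 Rbm4 reads lay behind it. Counting error was not worked out for this ratio, so its narrow wild-type spread is not read as stable. The difference of 0.26 did not pass an exact two-sided permutation test (p = 0.0857, where 0.0286 is the smallest p that 70 labellings allow). Without S74N/+ replicate 3, the only S74N/+ liver inside the wild-type range, the difference was 0.35. The genotypes were then fully separated, so the exact permutation p of 0.0286 was the smallest possible and is no separate test. The call turned on this 1 liver. This ratio and the ratio of Rbm3 to Cirbp were chosen after the values had been seen.

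The cold-inducible pair was compared in the same way. The ratio of Rbm3 to Cirbp was 0.706, 0.458, 0.938 and 0.945 in wild-type replicates 1 to 4 and 0.941, 0.953, 0.795 and 2.13 in S74N/+ replicates 1 to 4. Except for the low value in wild-type replicate 2 and the high one in the 2-month-old S74N/+ mouse, the livers of both genotypes lay side by side. The log2 ratio differed by 0.60 (exact permutation p = 0.171), and by 0.29 without that mouse (exact permutation p = 0.429) or 0.38 without wild-type replicate 2 (exact permutation p = 0.457). The summed count of the pair was 201 ± 22.0 and 192 ± 29.6 (SD, n = 4 each; exact permutation p = 0.714).

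To set the genes against each other liver by liver with the genotype difference removed, the deviation of each log2 value from its genotype mean was correlated over the 8 livers, for the 10 pairs of genes and for each gene with 3 scores, 25 relations in all. None passed an adjusted p of 0.05 and the smallest was 0.477. Rbm14 and Rbm3 went together most closely, with Pearson r = 0.78 (exact permutation p = 0.0191, adjusted p = 0.477) and Spearman rho = 0.81 (exact permutation p = 0.0260, adjusted p = 0.651). Here and below, the 2 livers farthest from the median were picked on the log2 values of the first-named gene before centring. Without them r was 0.94. Both genes were high in replicate 4 of each genotype and low in S74N/+ replicate 3.

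Rbm4 and Rbm14, neighbours on the same strand, had r = 0.76 (exact permutation p = 0.0833, adjusted p = 0.521) and rho = 0.69 (exact permutation p = 0.149, adjusted p = 0.697). Without the 2 farthest livers, wild-type replicates 1 and 4, r was -0.02, but those 2 held most of the spread of Rbm4. With any 1 liver left out r was 0.65 to 0.90. Rbm4 and Rbm4b had r = 0.13 (exact permutation p = 0.604, adjusted p = 0.795) and rho = 0.19 (exact permutation p = 0.590, adjusted p = 0.738). No relation between the paralogs within genotypes was detectable over these livers.

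Rbm3 and Cirbp, both cold-inducible, had r = -0.39 (exact permutation p = 0.446, adjusted p = 0.666) and rho = -0.43 (exact permutation p = 0.342, adjusted p = 0.697). The coefficient was -0.75 without the 2 livers farthest from the median and 0.01 without the 2-month-old mouse. Rbm4b had r = 0.56 with Rbm3 (exact permutation p = 0.340, adjusted p = 0.639; rho = 0.50, exact permutation p = 0.285) and r = -0.61 with Cirbp (exact permutation p = 0.196, adjusted p = 0.639; rho = -0.40, exact permutation p = 0.361). Without the 2 farthest livers, S74N/+ replicate 4 and wild-type replicate 1, these were 0.25 and 0.19. Leaving out S74N/+ replicate 4 alone gave r = 0.11 with Cirbp, and leaving out wild-type replicate 1 alone gave -0.62. The negative relation with Cirbp thus rested on S74N/+ replicate 4.

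A score of 12 heat shock genes, the mean of their log2 values, was 9.12, 9.09, 8.87 and 8.93 in wild-type replicates 1 to 4 and 8.96, 8.67, 9.02 and 8.54 in S74N/+ replicates 1 to 4. It was lowest in the 2-month-old mouse, where Rbm3 was highest, and highest within S74N/+ in replicate 3, where Rbm3 was lowest. Rbm3 had r = -0.78 with the score (exact permutation p = 0.0434, adjusted p = 0.521) and rho = -0.69 (exact permutation p = 0.102, adjusted p = 0.697), and r was -0.54 without the 2 livers farthest from the median. Cirbp had r = 0.59 (exact permutation p = 0.193, adjusted p = 0.639; rho = 0.48, exact permutation p = 0.285), which became -0.06 without the 2 farthest livers. The score itself was 9.00 ± 0.12 in wild-type and 8.80 ± 0.23 in S74N/+ livers (SD, n = 4 each), a difference of -0.21 that did not pass an exact permutation test (p = 0.2).

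**Figure D3:**
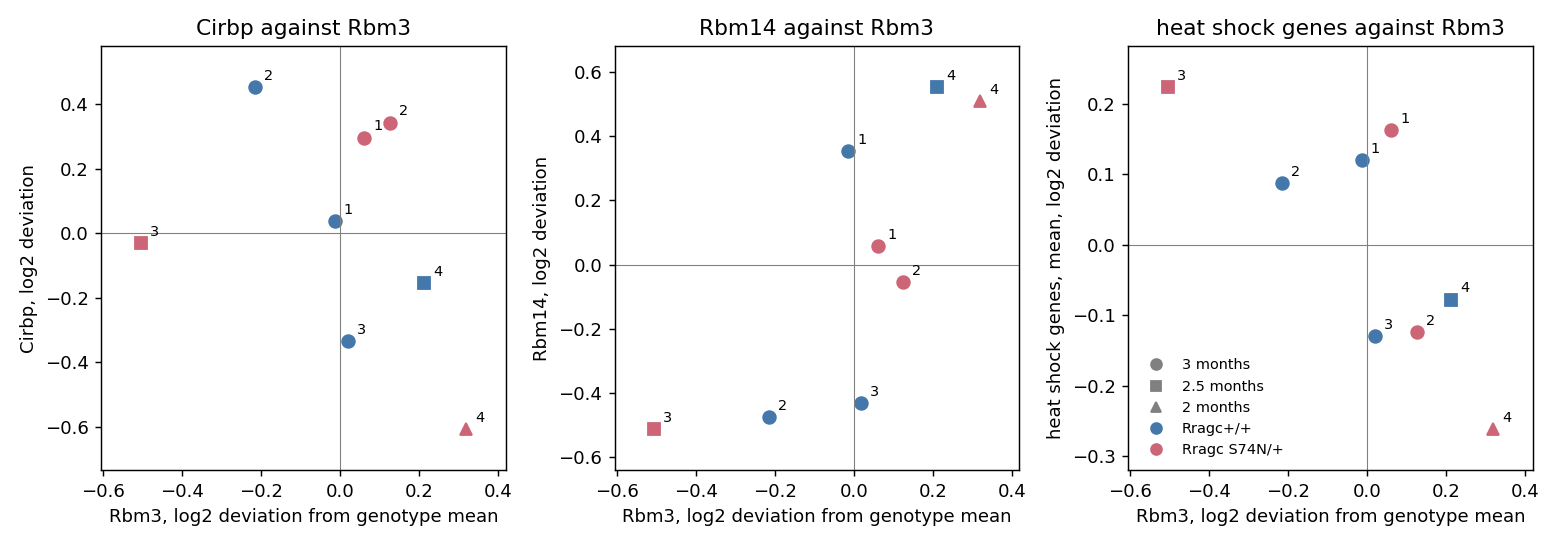
Deviations from the genotype mean on the log2 scale, of Cirbp, Rbm14 and the mean of 12 heat shock genes (y axes) against Rbm3 (x axes), 1 point per liver with its replicate number, colour for genotype and shape for age. Pearson r was -0.39, 0.78 and -0.78, and none passed an adjusted p of 0.05 over 25 relations.

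Since the hour of collection is not given, clock genes were used to set the livers against each other. A dawn score (Arntl, Clock and the like, 4 of 5 tested) was 7.12, 7.50, 6.90 and 6.69 in wild-type replicates 1 to 4 and 7.38, 7.28, 6.58 and 7.34 in S74N/+ replicates 1 to 4. A day-to-dusk score (Dbp, Per2, Nr1d1 and the like, 8 of 11 tested) was 6.17, 5.74, 6.05 and 6.92 against 5.79, 5.30, 7.43 and 5.51. Both 2.5-month-old mice, 1 of each genotype, had the lowest dawn and the highest dusk score of their genotype, so that these livers differed from the rest of their group in clock phase genes as well as in age. Neither score differed between genotypes beyond the spread (exact permutation p = 0.771 for dawn and 0.686 for dusk).

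Some relations of the 5 genes to these scores rested on 1 or 2 livers. Rbm3 had r = -0.57 with the dusk score (exact permutation p = 0.295, adjusted p = 0.639; rho = -0.45, exact permutation p = 0.326), but r = 0.68 without S74N/+ replicate 3 and 0.81 without the 2 livers farthest from the median. Rbm4 had r = 0.43 with the dusk score (exact permutation p = 0.0799, adjusted p = 0.521; rho = 0.36, exact permutation p = 0.288) and 0.10 without the 2 farthest livers. Rbm4b had r = -0.20 with the dusk score (exact permutation p = 0.745, adjusted p = 0.846) and 0.25 with the dawn score (exact permutation p = 0.599, adjusted p = 0.795). With age added to the centring, r was -0.73 with dusk and 0.82 with dawn. Neither passed (adjusted permutation p = 0.608 and 0.543), so the size of these relations depended on how age was handled.

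The genes nearest in pattern to each of the 5 were listed as a description, by Pearson r of deviations from the genotype mean over the 8 livers among 11173 genes, which share libraries and depth. For Rbm4b they were Reps1 (r = 0.96), Sav1 (0.95) and Banp (0.95). For Rbm4 they were Coro2b (0.97), Atad2 (0.97) and Ufsp2 (0.96), and for Rbm14 Morc4 (0.97), Rdh14 (0.96) and Ier3 (0.96). For Rbm3 they were Izumo4 (0.97), Cc2d2a (0.96) and AC139131.1 (0.96), and for Cirbp Cyp8b1 (0.98), the sterol 12α-hydroxylase of bile acid synthesis, Crip2 (0.97) and Ube2f (0.96). None of the 5 was among the 3 nearest of another, and in rank Rbm3 was 129th for Rbm14.

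Among all genes named Rbm with a number, 34 were listed and 28 tested, with a median log2 fold change of 0.02 against 0.01 over all tested genes. Rbm4b had the largest value (1.10), followed by Rbm7 (0.74, SE 0.44), a subunit of the nuclear exosome targeting complex, and Rbm47 (0.52, SE 0.29), a cofactor of cytidine deamination of Apob RNA. The lowest were Rbm45 (-0.59, SE 0.46), Rbm8a2 (-0.54, SE 0.45), a near copy of the exon junction gene Rbm8a whose reads may not be separable from it, and Rbm28 (-0.40, SE 0.20). None of those other than Rbm4b, which was not tested, passed the adjusted test, where 0.00895% of all tested genes did. Of the 28, only Rbm4b, picked on this contrast, had all S74N/+ livers above all wild-type livers (1.3% of all tested genes), and only Rbm28 had all below (1.64% of all tested genes).

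**Figure D4:**
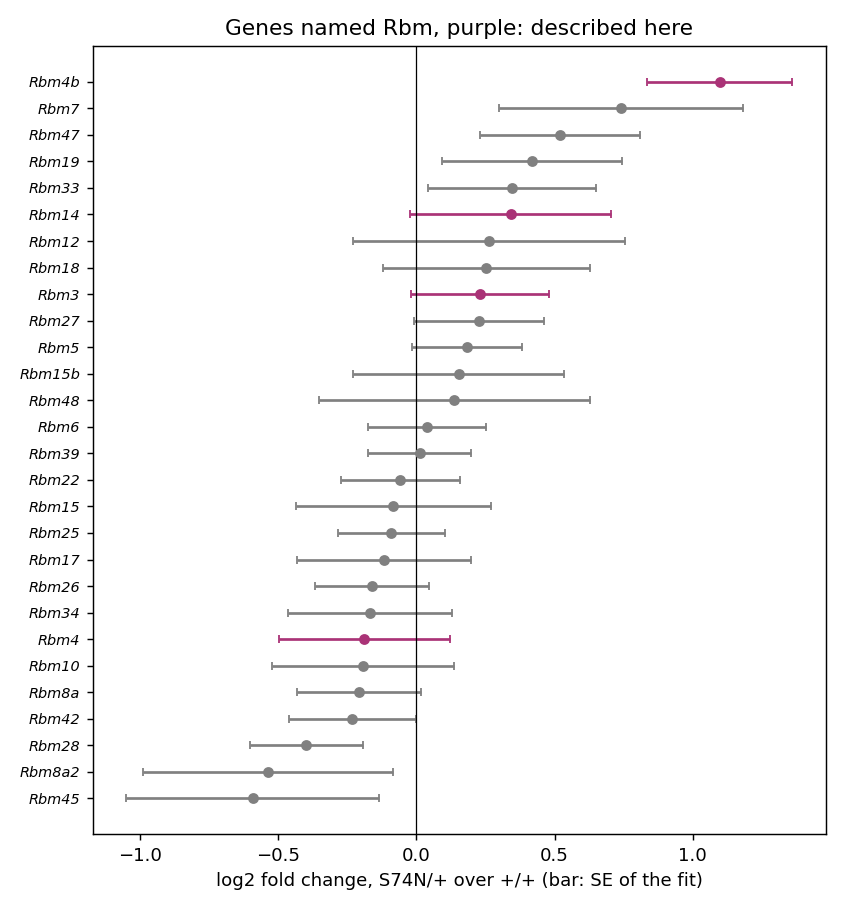
Log2 fold change of S74N/+ over wild-type (x axis) with its standard error for the 28 tested genes named Rbm with a number (y axis, ordered by value), the genes described here in purple. Rbm4b had the highest value, 1.10, while Rbm14, Rbm3 and Rbm4 were at 0.34, 0.23 and -0.19.

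Gene groups in which these proteins act were described from fixed lists. Only 0.00895% of all tested genes passed the adjusted test, so a list with none passing is not set apart by that. Of 23 hnRNP and Ptbp genes, which include the splicing repressors that RBM4 opposes, none passed the adjusted test and the median log2 fold change was 0.16. Their values ran from Hnrnpul2 (-0.42) to Hnrnpf (1.40, SE 0.86), and Ptbp3 was the 1 gene with all S74N/+ livers above, at 381 ± 37.7 against 538 ± 71.3 (SD, n = 4 each; limma adjusted p = 0.846), where 1.3% of all tested genes had that order. Of 16 SR splicing factors and their Clk kinases none passed, with a median of 0.06 and values from Srsf4 (-0.40) to Clk4 (0.50). Of 7 paraspeckle genes, partners of RBM14, none passed, with a median of 0.19 and values from Pspc1 (-0.23) to Ewsr1 (0.43).

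The clock and heat shock groups gave no call either, where 0.00895% of all tested genes were called. In the dawn group (median 0.03) values ran from Clock (-0.36) to Arntl (0.68), and in the dusk group (median -0.21) from Per3 (-1.18, SE 0.82) to Nr1d2 (0.54). The dusk median was 0.13 with edgeR or DESeq2 on recovered reads and -0.49 in 3-month-old mice. It was -0.82 without S74N/+ replicate 3, and 0.04 without wild-type replicate 4, 0.06 without S74N/+ replicate 2 and 0.03 without S74N/+ replicate 4, so it carried no stable sign. The 12 heat shock genes had a median of -0.23, and 10 of them were at or below 0. That leaves 2 of 12 above 0, where 5737 of all 11174 tested genes were above 0. Bag3, a co-chaperone of Hsp70, was at 142 ± 16.0 in wild-type and 94.7 ± 20.1 in S74N/+ livers (SD, n = 4 each; log2 fold change -0.60, limma adjusted p = 0.846), the 1 heat shock gene of 12 with every S74N/+ liver below every wild-type liver, an order found in 1.64% of all tested genes. Dnajb1, of the Hsp40 family, had the highest value, 0.19.

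Markers of other cells were read beside Rbm4b. B and plasma cell markers (7 of 7 listed in the table, 2 tested) summed to 85.1 to 153 in wild-type and 195 to 292 in S74N/+ livers, higher without overlap. Of the 2 tested, Igkc was at 57.1 ± 15.3 in wild-type and 141 ± 26.6 in S74N/+ livers (SD, n = 4 each, limma adjusted p = 0.846). Ighm overlapped, at 31.4 ± 10.2 and 45.1 ± 14.7, so the difference in the sum rests mainly on Igkc. Of all tested genes, 1.3% had every S74N/+ liver above every wild-type liver and 1.64% every one below. Kidney markers (5 of 9 in the table, with Umod and Aqp2 among those not listed) summed to 87.7 to 183 and 23.7 to 58.8, lower without overlap. Of these only Kap, a kidney androgen-regulated protein gene, passed the filter on low values, at 95.7 ± 45.4 in wild-type and 24.6 ± 19.1 in S74N/+ livers (SD, n = 4 each; limma adjusted p = 0.846), so the sum rests mainly on it. Kupffer cell markers (12 of 12) summed to 3167 to 4874 and 3167 to 5169, endothelial markers (8 of 8) to 1184 to 1541 and 1216 to 1547, and stellate cell markers (7 of 7) to 2161 to 2518 and 1825 to 2452. These sums overlapped, but 1 of 12 tested Kupffer markers, Marco, had every S74N/+ liver above every wild-type liver. Marco was at 22.2 ± 2.33 and 88.9 ± 39.2 (SD, n = 4 each; log2 fold change 1.82, limma adjusted p = 0.846). Of 6 tested stellate markers 1, Ecm1, had every S74N/+ liver below. Ecm1 was at 354 ± 69.5 and 225 ± 44.5 (SD, n = 4 each; log2 fold change -0.65, limma adjusted p = 0.846). The part of these in the Rbm4b values was not tested.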

How the data were processed

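Livers of 4 Rragc+/+ and 4 Rragc S74N/+ mice were profiled with a 3′ messenger RNA kit. Per the labels and methods, the authors mapped reads on GRCm38 using TopHat2 2.0.10, Bowtie 1.0.0 and SAMtools 0.1.19, counted them by strand with HTSeq 0.6.1 against GENCODE and scaled them with DESeq2. The deposited signal gives each gene a normalized read count in each liver. Every value (100%, tolerance 0.01 reads) was a whole multiple of its liver's step, so whole reads were recovered, 4313076 to 6632108 per liver with size factors of 0.707 to 1.23. Nothing beyond the labels of separate samples says how the mice were related, so p-values measure the spread between these livers.

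Here limma 3.58.1 in R 4.3.3 was fitted to log2(normalized count + 1) of the 11174 genes averaging 10 or more, modelling genotype alone, a mean-variance trend and Benjamini-Hochberg adjustment over all of them at 0.05, two-sided. Fold changes are on that scale, which understates changes of low genes. It called 1 gene. On the recovered reads the quasi-likelihood test of edgeR 4.0.16 called 1 and DESeq2 1.42.0 called 10. Correlations used deviations from the genotype mean, with exact two-sided permutation over all 576 reorderings within genotypes and adjustment over 25 relations. The correlation and limma steps were tested on simulated data. Python 3.11.15, numpy 2.4.6 and scipy 1.17.1 were used. Positions are from GENCODE M21, a release neighbouring the authors' one, in which 14458 listed names were found, and promoter sequences from RefSeq (GRCm38.p6).

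Named genes were the 5 genes, Rragc, genes of the lists past the threshold or otherwise the highest and lowest of each list, the 3 highest and 3 lowest Rbm genes, and the 3 genes most alike to each of the 5. Gpx3, Ptbp3, Bag3, Marco, Ecm1 and the neighbours of the cluster were named after their values were seen. A further tested neighbour is not reported here. The genes, lists and tests were chosen with earlier results of these data known. Alternatives were pseudocounts of 0.1 and 5, leaving low genes in or requiring a mean of 50, TMM and upper-quartile rescaling, limma without trend or with array weights, age as covariate, 3-month-old mice, the count tools, other centring and leaving out each liver.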

Additional observations from a re-analysis of the deposited data

Results flagged for a closer look

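In groups of 4 livers, 2 of 24 tested values stood apart from the other 3 by the 95% limit of Dixon's ratio, where chance gives about 1.2. The dawn clock score of Rragc S74N/+ replicate 3 was 6.58, below the other livers of its genotype at 7.28 to 7.38 (ratio 0.869). The recovered reads of Rragc+/+ replicate 3 were 4313076, below the 6177759 to 6509465 of the other Rragc+/+ livers (ratio 0.849). Leaving this library out moved the log2 fold change of Rbm4b from 1.10 to 1.08.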

How the results depend on the processing

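With 4 livers per genotype and 15 to 168 reads behind each value of the 5 genes, a change such as that of Rbm14 (SE 0.36) was not resolvable. The log2 fold change of Rbm4b was 0.94 to 1.19 under every alternative. This describes the contrast that chose the gene, in the same livers, and is no separate support for it. The log2 fold changes of Rbm14, Rbm3 and Cirbp kept their sign. None of Rbm4, Rbm14, Rbm3 and Cirbp passed an adjusted p of 0.05 in any fit, and a filter at a mean of 50 removed Rbm14. The number of genes past the threshold was 1, against 0 without the trend, with age as covariate and in 3-month-old mice, and 10 with DESeq2. Leaving out each liver gave 0 to 2 such genes. No paired analysis was possible because mice share no numbers in the labels. The cause of the changes below was not tested.

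Rbm4 changed sign, from -0.19 to 0.0118 in 3-month-old mice, and ranged from -0.35 to 0.0487 when each liver was left out. Correlations that changed sign were as follows. Without centring, Rbm4 had -0.19 with Rbm4b and 0.0929 with heat shock. Centring with age gave Rbm4 -0.37 with Rbm4b, 0.28 with Cirbp and 0.17 with heat shock, and Cirbp 0.13 with dusk. Without the 2 livers farthest from the median, Rbm4 had -0.0207 with Rbm14 and -0.15 with Rbm3, and Rbm4b had 0.19 with Cirbp, 0.16 with dusk and 0.48 with heat shock. Rbm3 then had -0.97 with dawn and 0.81 with dusk, and Cirbp -0.0600 with heat shock.

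Leaving out each liver, Rbm4 ranged from -0.18 to 0.22 with Rbm4b, -0.56 to 0.12 with Cirbp and -0.32 to 0.19 with heat shock. Rbm4b ranged from -0.80 to 0.11 with Cirbp, -0.0364 to 0.44 with dawn, -0.53 to 0.27 with dusk and -0.86 to 0.10 with heat shock. Rbm14 ranged from -0.51 to 0.48 with dawn and -0.48 to 0.73 with dusk. Rbm3 ranged from -0.80 to 0.0109 with Cirbp, -0.83 to 0.72 with dawn and -0.85 to 0.68 with dusk, and Cirbp from -0.61 to 0.00536 with dusk. List medians near 0 also turned sign under some settings, ranging over all of them from -0.0810 to 0.20 for dawn, -0.82 to 0.13 for dusk, -0.0222 to 0.19 for SR factors and Clk kinases and -0.07 to 0.09 for the Rbm genes. The ratios and their alternatives were added after seeing the data.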
